A study of Mus musculus with 13 samples.

Results

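The genes described here encode 8 enzymes of the routes by which cells reduce NADP+ to NADPH: Pgls, Pgd, Tkt and Taldo1 of the pentose phosphate pathway, the malic enzyme Me1, the isocitrate dehydrogenases Idh1 and Idh2, and the folate enzyme Mthfd2. They were chosen by name, each was read through the brightest transcript cluster annotated to it, and all 8 were found among the 19938 genes tested. NADPH is the reductant for fatty acid and sterol synthesis and for the glutathione and thioredoxin systems that remove peroxides. In fibroblasts the oxidative branch of the pentose phosphate pathway is a main source, in which glucose 6-phosphate dehydrogenase makes the first molecule, the lactonase Pgls opens the product, and Pgd makes the other. Tkt and Taldo1 make no NADPH themselves but return the pentoses to glycolytic intermediates, Me1 and Idh1 act in the cytosol, and Idh2 and Mthfd2 act in mitochondria, where Mthfd2 can use NAD+ as well as NADP+.

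The study asked which transcripts follow the duration of mild cooling in primary mouse embryonic fibroblasts. Cells obtained commercially were grown at 37°C and either left there (normothermia) or placed at 32°C (hypothermia), with no other treatment. Cultures were taken at 0.5, 1, 2, 4, 8 and 18 h at each temperature and at 0 h, a normothermia sample that serves as the start of both courses. Each of the 13 arrays measured RNA pooled from 3 dishes, so that there was 1 array per temperature and time and no replicate array. Errors below are therefore the scatter about a line in time, or among the differences taken at matched hours, and the p-values measure that scatter and not the spread between cultures. Neither the strain nor the age of the embryos is stated in the labels.

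The arrays resembled each other closely. The correlation of log2 values between any 2 of them lay between 0.994 and 0.999, and their median intensities lay between 145 and 150. All 10 fibroblast markers examined, collagens among them, were above the median of all genes, while of 13 measured markers of other cell types only Cd68 and Krt8 were. The summed intensity of the fibroblast markers ranged from 44749 to 49602 at 32°C and from 47918 to 49085 at 37°C, and that of the other markers from 1151 to 1316 at 32°C and from 1133 to 1200 at 37°C. None of the markers passed the adjusted threshold in the comparison of the courses. The divergence is the slope, over the order of times, of the difference of 32°C minus 37°C along a line held at 0 at the start. A constant gap can therefore also give a divergence away from 0. The divergence was negative for 8 of the 10 fibroblast markers, against 46.2% of all genes. For 3 of them the unadjusted limma p was under 0.05, against 9.9% of all genes. Of the 13 other markers, 2 were higher and 1 lower at that level, against 8.52% and 9.9% of all genes. Cd68, a macrophage marker, was at 0.053 log2 units per time point (limma adjusted p = 0.0858) and was 1.68-fold of the start at 18 h at 32°C against 1.13-fold at 37°C. The part of these markers in the results below was not tested. The cultures are bulk samples, so that fewer cells of a type and less RNA per cell cannot be told apart.

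Of the 8 enzymes, Pgd alone passed the adjusted threshold, and it did so in 1 comparison. Its course at 32°C diverged upwards from that at 37°C by 0.051 ± 0.012 (SE) log2 units per time point over the 6 matched times (95% interval 0.025 to 0.077, limma adjusted p = 0.0465). Tkt and Taldo1 were also higher at 32°C than at 37°C at all 6 matched times, without passing that threshold. The remaining 5 enzymes showed no called difference, with Me1 lower at 32°C from 4 h on. All of these differences were small, the largest being 0.35 log2 units.

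**Figure D1:**
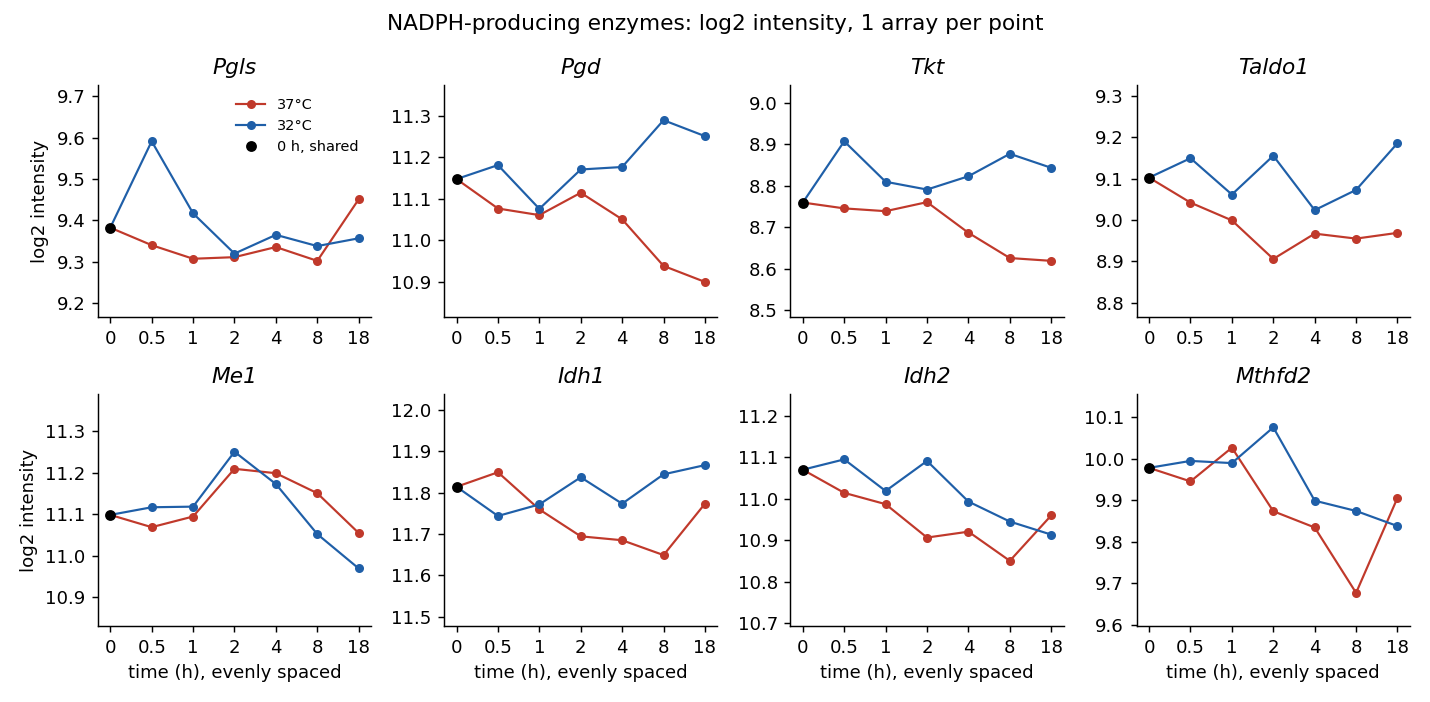
Log2 intensity of the 8 enzymes by time of culture (h, at equal spacing), blue for 32°C and red for 37°C, 1 array per point, with the shared 0 h array in black and the same span of log2 units in every panel. Only Tkt has its 6 arrays at 32°C, 8.79 to 8.91, entirely above its 6 arrays at 37°C, 8.62 to 8.76.

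Pgd, phosphogluconate dehydrogenase, carries out the second NADPH-forming step of the oxidative branch. Its log2 intensity was 11.15 at 0 h. At 32°C it was 11.18, 11.08, 11.17, 11.18, 11.29 and 11.25 at 0.5, 1, 2, 4, 8 and 18 h. At 37°C it was 11.08, 11.06, 11.11, 11.05, 10.94 and 10.90 at the same times. All 6 values at 37°C thus lay below the starting value and 5 of the 6 at 32°C above it, with the lowest value at 32°C overlapping the highest values at 37°C. The difference of 32°C minus 37°C was between 0.015 and 0.13 up to 4 h and 0.35 at both 8 and 18 h. Among all genes, ranked by this difference, Pgd stood at percentile 97.6 at 8 h and 95.6 at 18 h. Relative to the start, the intensity at 18 h was 1.07-fold at 32°C and 0.842-fold at 37°C. The gap between the courses therefore contained a lower value at 37°C as well as a higher one at 32°C. Fitted separately, the slope was 0.022 log2 units per time point at 32°C (95% interval -0.011 to 0.056, limma adjusted p = 0.481) and -0.037 at 37°C (-0.062 to -0.012, adjusted p = 0.785), and neither passed the threshold.

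Over the 3 late pairs, 4, 8 and 18 h, Pgd was 1.21-fold as bright at 32°C as at 37°C, a mean difference of 0.28 ± 0.13 (SD, 3 pairs) in log2 units, with a 95% interval of 0.13 to 0.43. This missed the adjusted threshold (limma adjusted p = 0.0611). The call on the divergence lies close to its threshold as well. It was lost on leaving out both arrays of any single time of 0.5, 2, 4, 8 or 18 h (slopes 0.044 to 0.056 over all such fits, adjusted p = 0.0486 to 0.225), and with a separate step for 32°C beside the slope (0.066, adjusted p = 0.324). The direction was upwards in all 16 alternative fits and the call was made in 7. Fits that dropped dim genes, averaged a gene's clusters or changed the eBayes setting keep the slope of Pgd, so their direction was fixed in advance.

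Tkt, transketolase, moves carbon units between the sugars of the non-oxidative branch. It started at 8.76 and was 8.91, 8.81, 8.79, 8.82, 8.88 and 8.84 at 32°C at 0.5 to 18 h. At 37°C it was 8.75, 8.74, 8.76, 8.69, 8.63 and 8.62. Every array at 32°C was above every array at 37°C, a separation that 0.863% of all genes showed in the same direction. The pair differences ran from 0.030 at 2 h to 0.25 at 8 h. Averaged over the late pairs the difference was 0.20 ± 0.060 (SD, 3 pairs), or 1.15-fold (95% interval 0.067 to 0.34 in log2 units, limma adjusted p = 0.114). The divergence was 0.039 log2 units per time point (0.014 to 0.064, adjusted p = 0.0955), which did not pass.

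Taldo1, transaldolase, works beside transketolase in the same branch. From 9.10 at the start it was 9.15, 9.06, 9.15, 9.02, 9.07 and 9.19 at 32°C. At 37°C the values were 9.04, 9.00, 8.91, 8.97, 8.96 and 8.97. All arrays at 37°C were below the starting value, those at 32°C lay on both sides of it, and 1 array at 32°C fell within the range at 37°C. The widest gap, 0.25, was at 2 h, followed by 0.22 at 18 h. The mean over 6 pairs was 0.13 ± 0.080 (SD), with a 95% interval of 0.034 to 0.24 (limma adjusted p = 0.245). The divergence was 0.034 per time point (0.0080 to 0.060, limma adjusted p = 0.153). The mean difference was 0.14 over the 3 early pairs and 0.13 over the 3 late ones, so this divergence does not show a widening gap.

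Pgls, 6-phosphogluconolactonase, acts between the NADPH-forming steps of the oxidative branch and had another course. It was 9.38 at 0 h, and at 32°C it was 9.59 at 0.5 h, 9.42 at 1 h and between 9.32 and 9.37 thereafter. At 37°C it stayed between 9.30 and 9.34 until 8 h and was 9.45 at 18 h. The only wide gap was thus the first, 0.25 at 0.5 h (percentile 95.4 of all genes), and at 18 h the value at 32°C was 0.094 below that at 37°C. The divergence was 0.0025 log2 units per time point (95% interval -0.028 to 0.033, limma adjusted p = 0.950). Glucose 6-phosphate dehydrogenase itself, G6pdx, had no transcript cluster annotated to it alone and was not analysed here. G6pd2, a retrocopy of it, was measured, but its probes may also bind the parent transcript, so no course is read from it.

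The upstream sequences of the 3 pentose phosphate genes that were higher at 32°C in all pairs are shown so that they can be compared by eye. They are the 120 bases before the annotated RefSeq start in build GRCm38.p6, at chr4:149166706-149166825 on the minus strand for Pgd, chr14:30549011-30549130 on the plus strand for Tkt and chr7:141392040-141392159 on the plus strand for Taldo1. Capitals mark the letters CCAAT (the CCAAT box) and GGGCGG (the GC box), read on either strand, so that they also appear as ATTGG and CCGCCC.
Pgd: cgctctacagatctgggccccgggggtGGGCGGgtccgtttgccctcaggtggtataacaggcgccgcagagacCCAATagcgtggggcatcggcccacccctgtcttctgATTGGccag
Tkt: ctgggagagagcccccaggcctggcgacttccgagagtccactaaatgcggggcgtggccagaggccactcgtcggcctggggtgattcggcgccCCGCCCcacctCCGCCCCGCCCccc
Taldo1: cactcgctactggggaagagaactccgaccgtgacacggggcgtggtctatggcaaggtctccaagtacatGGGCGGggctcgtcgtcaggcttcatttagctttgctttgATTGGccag
Pgd and Taldo1 both end in the same ATTGG next to the start and both hold GGGCGG, whereas the Tkt sequence holds several CCGCCC runs, overlapping in part, and no CCAAT. In windows of 300 bases around the start, CCAAT was found in 37.4% of 32851 promoters in the RefSeq table and in 5 of the 8 enzymes, and GGGCGG in 35.7% and in 7 of 8. These matches are letters only and do not show binding.

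**Figure D2:**
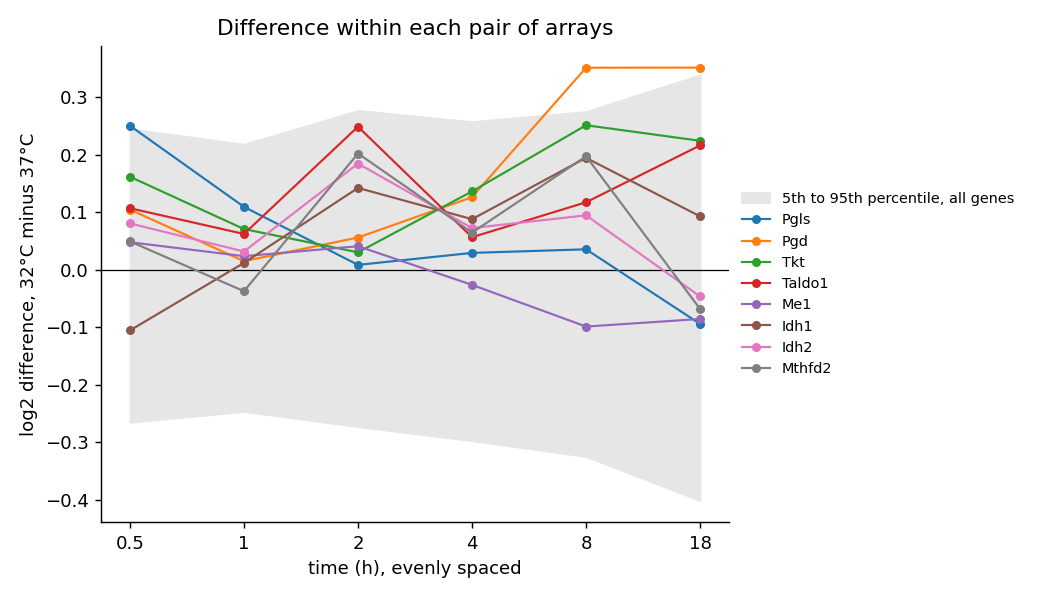
Log2 difference of 32°C minus 37°C for each enzyme at each time (h, evenly spaced), 1 pair of arrays per point, over the band from the 5th to the 95th percentile of all 19938 genes in grey. Pgd lies above the band at 8 and 18 h with 0.35, Pgls just above it at 0.5 h with 0.25, and the other points lie inside it.

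Me1, cytosolic malic enzyme, turns malate into pyruvate and NADPH. It was 11.10 at the start, and at 32°C it was 11.12, 11.12, 11.25, 11.17, 11.05 and 10.97. At 37°C it was 11.07, 11.09, 11.21, 11.20, 11.15 and 11.05. Both courses were highest at 2 to 4 h and lower afterwards, and the arrays of the 2 temperatures overlapped widely. The difference was positive in the 3 early pairs (0.024 to 0.048) and negative in the 3 late ones (-0.026, -0.099 and -0.085). The late mean was -0.070 ± 0.039 (SD, 3 pairs), a fold of 0.953 (95% interval -0.20 to 0.058 in log2 units, limma adjusted p = 0.566). A second transcript cluster annotated to Me1 followed the first (r = 0.976 over 13 arrays) and gave a divergence of the same sign, -0.012 against -0.0098 log2 units per time point.

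Me1 is a classical target of NRF2, the transcription factor that binds antioxidant response elements, and its start region is shown because it alone among the first promoter windows of the 8 enzymes held the core letters TGACNNNGC on either strand. The match, in capitals, spans the RefSeq start and lies at chr9:86695901-86695930 on the minus strand of GRCm38.p6 together with the bases around it.
Me1: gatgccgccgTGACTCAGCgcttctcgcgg
A second annotated start of Pgd also held these letters, which occurred in 12.4% of all 32851 promoter windows. TGATGNAA, the core searched for the amino acid response element that ATF4 binds, was in 3.97% of them and in 0 of the 8. For Idh2 and Mthfd2 the window read was not at the outermost annotated start of the gene. The absence of a match says only that these letters are not in that window.

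Idh1 and Idh2 both oxidize isocitrate with NADP+, Idh1 in the cytosol and peroxisomes and Idh2 in mitochondria. Idh1 was 11.81 at 0 h, and at 32°C it was 11.74, 11.77, 11.84, 11.77, 11.84 and 11.87. At 37°C it was 11.85, 11.76, 11.69, 11.69, 11.65 and 11.77. The order of the temperatures turned with time, from a difference of -0.11 at 0.5 h to 0.19 at 8 h, and 32°C was the higher in 5 of 6 pairs. Its divergence of 0.024 log2 units per time point had a 95% interval of -0.00098 to 0.050 (limma adjusted p = 0.292).

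Idh2 started at 11.07, and all 6 arrays at 37°C but only 4 at 32°C lay below that value. It was 11.09, 11.02, 11.09, 10.99, 10.94 and 10.91 at 32°C. At 37°C it was 11.01, 10.99, 10.91, 10.92, 10.85 and 10.96. Intensity at 18 h was 0.897-fold of the start at 32°C and 0.926-fold at 37°C, and the ranges overlapped. The fitted slopes were nearly equal, -0.028 (95% interval -0.060 to 0.0029) and -0.026 (-0.052 to 0.00013) log2 units per time point, and the divergence was 0.013 (-0.014 to 0.040, limma adjusted p = 0.621). In a ranked form, with an exact Kendall test over the 0 h array and the 6 arrays at 32°C, tau was -0.71 (two-sided exact p = 0.0302, adjusted over all genes 0.359).

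Mthfd2, methylenetetrahydrofolate dehydrogenase of mitochondria, is expressed in proliferating and embryonic cells and little in most adult tissues. It was 9.98 at the start, and 9.99, 9.99, 10.08, 9.90, 9.87 and 9.84 at 32°C. At 37°C it was 9.95, 10.03, 9.87, 9.83, 9.68 and 9.91. The lowest value of all, at 8 h and 37°C, was followed by 9.91 at 18 h, and the 2 temperatures overlapped. Its divergence was 0.016 log2 units per time point (95% interval -0.013 to 0.045, limma adjusted p = 0.583).

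**Figure D3:**
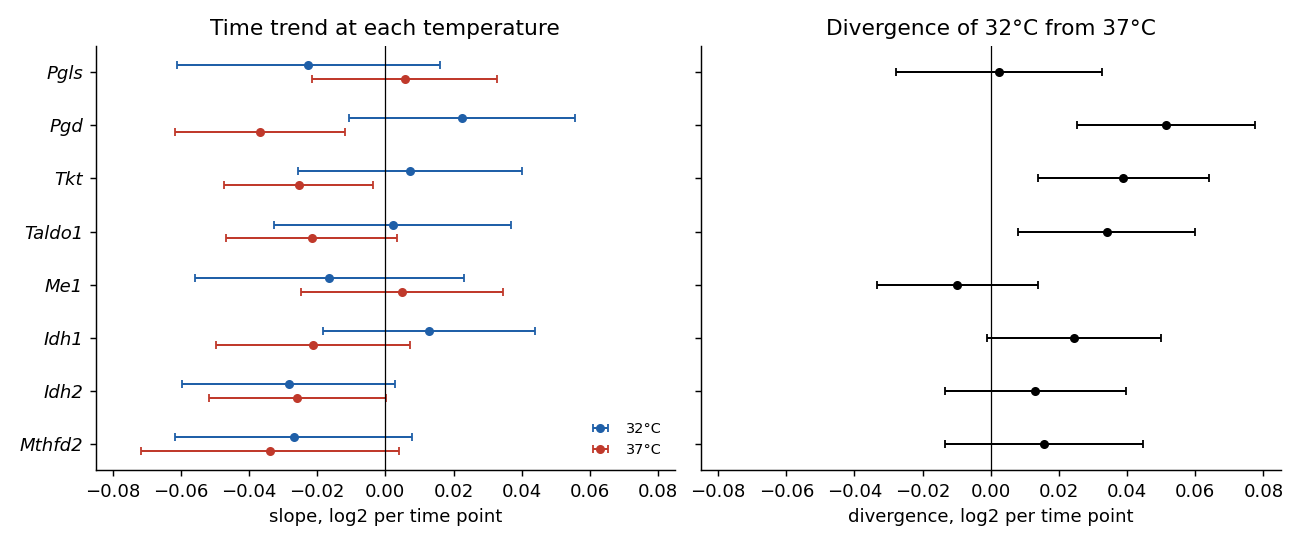
Fitted slopes with 95% intervals (bars) for the 8 enzymes in log2 units per time point, at 32°C and 37°C separately on the left and as the divergence of 32°C from 37°C on the right. The divergence interval lies above 0 for Pgd (0.025 to 0.077), Tkt (0.014 to 0.064) and Taldo1 (0.0080 to 0.060), of which Pgd alone passed the adjusted threshold. The divergence line is held at 0 at the start, so a constant gap can also give an interval away from 0.

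Counted over the 8 enzymes, 7 had a positive divergence, against 53.8% of all genes. The median was 0.020 log2 units per time point against 0.0020 over all genes tested. Of these 7, Taldo1, Idh2, Pgls and Mthfd2 had a larger mean difference over the early pairs than over the late ones. Their positive divergence therefore does not show a widening gap. For Pgd, Tkt and Idh1 the late mean was the larger. At an adjusted p under 0.05, 1 of 8 diverged upwards, against 1.17% of all genes, and 0 downwards, against 1.66%. Before adjustment 3 of 8 did so upwards at p under 0.05 (Pgd, Tkt and Taldo1), against 8.52% of all genes. The enzymes were chosen with earlier results of these data known, and these counts describe them without testing them as a group.

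The trends within each temperature gave 0 calls among the 8 at either temperature, where limma called 0.0953% of all genes at 32°C and 0% at 37°C. At an unadjusted p under 0.05 there were 0 of the 8 at 32°C, against 16.5% of all genes in either direction. At 37°C there were 2 with negative slopes, Pgd and Tkt, against 2.18%. The slopes at 37°C were negative for 6 of the 8, against 44.3% of all genes, with a median of -0.024 against 0.0022 for all genes. Those at 32°C were split 4 and 4, where 43.4% of all genes had negative slopes, with a median of -0.0072 against 0.0047. Both sets of slopes start from the same 0 h array. Exact Kendall tests named the same enzymes at 37°C, Pgd with a tau of -0.81 (two-sided exact p = 0.0107) and Tkt with -0.71 (exact p = 0.0302), but no gene of the whole table passed after adjustment at either temperature.

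The mean difference over the 6 pairs was called by limma for 0 of the 8 and for 0.0702% of all genes. At an unadjusted p under 0.05 it was higher at 32°C for 3, again Pgd, Tkt and Taldo1, against 7.13%. These 3 were the ones higher at 32°C in 6 of 6 pairs, against 4.79% of all genes. In an exact two-sided sign-flip test over the 6 pairs each had p = 0.03125, the smallest p that 6 pairs allow. Any gene higher in all 6 pairs has this p whatever the sizes, so it adds nothing to that count. The mean differences were 0.17 for Pgd (limma adjusted p = 0.255), 0.15 for Tkt (adjusted p = 0.214) and 0.13 for Taldo1, while Idh1, Idh2 and Mthfd2 had 0.071, 0.070 and 0.068, Pgls 0.057 and Me1 -0.016.

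For the late pairs limma called 0 of the 8 higher, against 0.802% of all genes, and 0 lower, against 2.15%. Unadjusted, 2 were higher at p under 0.05, Pgd and Tkt, against 7.62%. The median over the 8 was 0.095 against 0.0099 over all genes. The number of enzymes higher at 32°C was 7, 7, 8, 7, 7 and 4 at 0.5, 1, 2, 4, 8 and 18 h, with Me1, Idh2, Pgls and Mthfd2 lower at 18 h. The median difference of the 8 at these times was 0.093, 0.028, 0.099, 0.069, 0.16 and 0.023. Over all genes it was 0.029, 0, 0.0064, -0.0010, -0.0016 and 0.021. The share of all genes higher in each pair was not counted, so the counts only describe the 8.

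Across the 13 arrays the enzymes did not follow a single course. Pgd and Tkt had the highest correlation among them (r = 0.904), then Idh2 and Mthfd2 (r = 0.884), and Me1 and Idh1 had the lowest (r = -0.522). These are descriptions, since arrays of successive hours are not independent. Among 9968 genes above the median signal, the genes most like Pgd were 2010204K13Rik (r = 0.943), Commd10 and Anapc5. Those most like Tkt were Tpm3 (r = 0.910), Pgd itself and Lsm4, and those most like Taldo1 were Psph, the last enzyme of serine synthesis (r = 0.956), Casp6 and Rpl27. Me1 was closest to Nectin3 (r = 0.957), then to the clock gene Arntl and to Snx9. Idh1 was closest to Medag (r = 0.904), Nxpe4 and Eci2, and Idh2 to Nipsnap1 (r = 0.955), Gins4 and Gstz1. Pgls was closest to Gusb (r = 0.947), Slc25a39 and Tomm6, and Mthfd2 to Pde1a (r = 0.912), Tpi1 and Bnip3.

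The other genes of the same pathways gave few calls. Of 9 other measured genes of the pentose phosphate pathway, Rpe, ribulose-phosphate 3-epimerase, diverged downwards, by -0.071 log2 units per time point (limma adjusted p = 0.0484), and was 0.749-fold at 32°C over the late pairs (adjusted p = 0.0369). Its call was lost when each array was centred on its median (adjusted p = 0.0563 and 0.0541). On leaving out each time in turn, the divergence call of Rpe was kept in 1 of 6 fits (limma adjusted p up to 0.248). Rpia, the isomerase that shares its substrate, was at -0.24 over the late pairs (95% interval -0.38 to -0.10, adjusted p = 0.0717), and H6pd, the dehydrogenase of the endoplasmic reticulum, also at -0.24 (-0.40 to -0.072, adjusted p = 0.125). The median divergence of these 9 genes was -0.00071, against 0.0020 for all genes.

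In the other supply routes no gene was called in any of the 5 comparisons. The median divergence was 0.032 for the 2 other malic enzymes, 0.0028 for the 3 subunits of NAD-dependent isocitrate dehydrogenase, 0.0096 for 7 other folate genes, -0.00098 for 6 genes of citrate and malate supply and -0.0085 for the 3 genes of transhydrogenase and NAD kinases. In the folate cycle, Mthfd1, its cytosolic dehydrogenase, was at -0.21 over the late pairs (95% interval -0.37 to -0.041, limma adjusted p = 0.175), Mthfd1l, which releases formate in mitochondria, at 0.19 (0.030 to 0.36, adjusted p = 0.197), and Shmt2, the mitochondrial serine hydroxymethyltransferase, at 0.093 (-0.074 to 0.26). Nnt, the transhydrogenase that makes mitochondrial NADPH from NADH, was at -0.13 (-0.28 to 0.028, adjusted p = 0.369), and Nadk, which makes cytosolic NADP+, at -0.076 (-0.22 to 0.073). None of these can be called changed or unchanged from such intervals. The 7 folate genes all had negative slopes at both temperatures, against 43.4% of all genes at 32°C and 44.3% at 37°C.

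**Figure D4:**
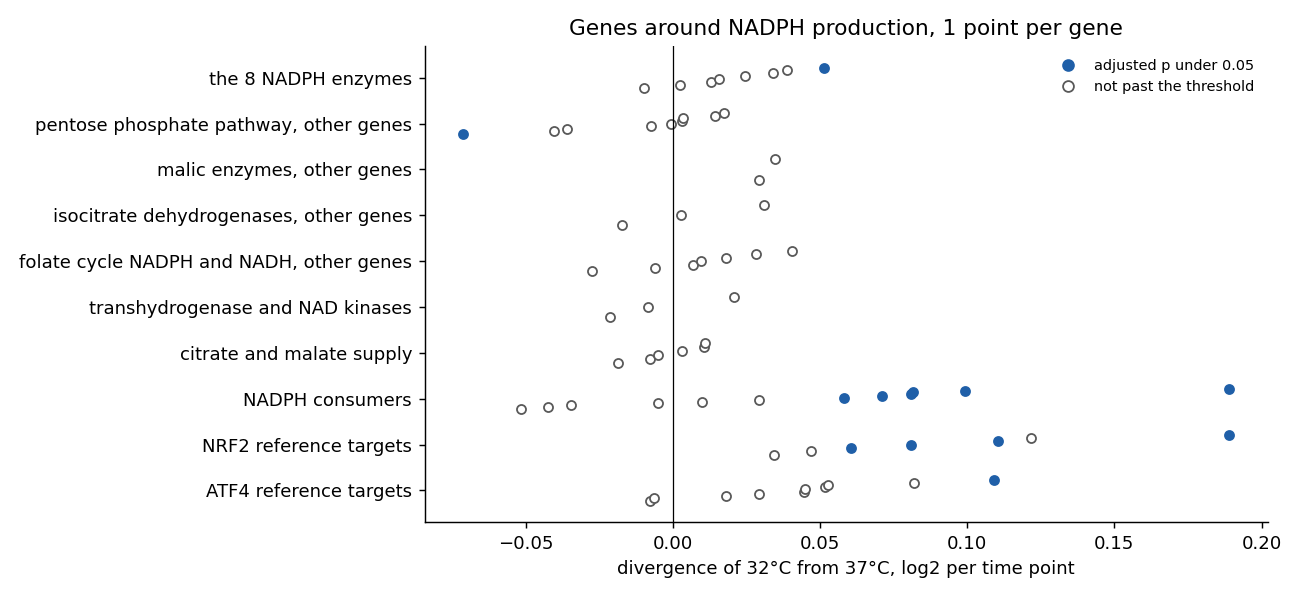
Divergence of 32°C from 37°C in log2 units per time point, 1 point per gene, for the 8 enzymes and the lists around them, with filled points for an adjusted p under 0.05 (Nqo1 and Txnrd1 appear in 2 lists, Shmt2 likewise). Filled points number 1 of 8 for the enzymes, 6 of 12 for NADPH consumers, 4 of 7 for NRF2 targets and 1 of 10 for ATF4 targets, with Rpe filled below 0.

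Among enzymes that use NADPH, the calls were upwards. This list was chosen with earlier results of these data known, and the study had listed Nqo1, Txnrd1 and Txnrd3 as rising with hypothermia. Of 16 listed consumers 12 were measured, and 6 of these diverged upwards, against 1.17% of all genes, and 0 downwards, against 1.66%, with a median of 0.044 log2 units per time point: Nqo1, a quinone reductase, Cbr3, a carbonyl reductase, Txnrd1 and Txnrd3, thioredoxin reductases, Blvrb, a biliverdin reductase, and Gsr, glutathione reductase. The divergences were 0.19 for Nqo1 (limma adjusted p = 0.0148), 0.099 for Cbr3 (adjusted p = 0.0148), 0.082 for Txnrd3, 0.081 for Txnrd1, 0.071 for Blvrb and 0.058 for Gsr. For Cbr3 the mean difference was already 0.37 over the early pairs, against 0.43 over the late ones. At 18 h Nqo1 was 3.02-fold of the start at 32°C and 0.977-fold at 37°C. Over the late pairs Nqo1 was 2.02-fold, Txnrd1 1.36-fold, Txnrd3 1.35-fold and Gsr 1.24-fold as bright at 32°C as at 37°C, against 1.21-fold for Pgd.

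Of the 12 consumers 4 had a negative divergence, against 46.2% of all genes. For 2 of these the unadjusted limma p was under 0.05, against 9.9% of all genes. These 2 are named here after their values were seen. They were Fasn, fatty acid synthase, at -0.052 log2 units per time point (95% interval -0.082 to -0.021, limma adjusted p = 0.0793), and Dhcr7, which makes cholesterol from its last precursor, at -0.043 (-0.077 to -0.0077, adjusted p = 0.178). Over the late pairs Fasn was 0.827-fold (adjusted p = 0.119) and Dhcr7 0.833-fold (adjusted p = 0.105) as bright at 32°C as at 37°C. Neither passed the threshold.

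Among 7 reference targets of NRF2, which share Nqo1 and Txnrd1 with the consumers, 4 diverged upwards, against 1.17% of all genes, the other two being Srxn1, sulfiredoxin (0.11 log2 units per time point, limma adjusted p = 0.00561), and Gclc, the catalytic subunit that begins glutathione synthesis (0.061, adjusted p = 0.0365). Their median divergence was 0.081. Of 10 ATF4 targets 1 did, against the same 1.17%, Chac1, a glutathione-degrading enzyme (0.11, adjusted p = 0.0346), with a median of 0.045. None of the 6 measured regulators was called. Differences between these lists and the 8 enzymes were not tested. The lists were chosen with earlier results of these data known, and the study had listed Nqo1, Srxn1, Txnrd1 and Gclc as rising with hypothermia. Shares of called genes therefore describe these lists and do not test them. With a separate step for 32°C in the fit, none of the genes named here as diverging kept an adjusted p under 0.05. Of the 10 genes called in these lists, Rpe included, Srxn1 alone kept its call on leaving out each time in turn (limma adjusted p up to 0.0404). The other calls ended in at least 1 such fit: 9 without the 8 h arrays, 7 without 18 h, 7 without 4 h, 4 without 0.5 h, and 1 each without 1 h and without 2 h.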

How the data were processed

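Labelled RNA of 13 pooled cultures was hybridised to Affymetrix Mouse Gene 1.0 ST arrays. The authors deposited 1 linear intensity per transcript cluster and array, between 4.24 and 18146, for 28853 clusters. The summarization and normalization behind them were not given in the sources used here. No counts underlie these values, and the number of arrays limits their precision.

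Of the clusters, 23410 were listed in the platform annotation, and 21789 of these had 1 gene symbol (21698 updated through the Entrez identifier). Those with several symbols, 1621, were left out. The brightest cluster stood for each of 19938 genes. Its log2 value, with no pseudocount or further filter, was fitted with limma 3.58.1 in R 4.3.3 (lmFit, eBayes, two-sided, Benjamini-Hochberg over all genes, threshold 0.05). There were 5 comparisons: a slope on the order of the 7 time points at 32°C and at 37°C, the divergence of the courses with time as a block, and the mean difference over 6 pairs or over the 3 late pairs. The divergence had no separate term for 32°C, so its line was held at 0 at the start. Scripts were tested on simulated data with known changes. Exact Kendall and sign-flip tests enumerated all orders of the 7 time points and all sign changes of the 6 pairs in numpy 2.4.6. Groups came from the sample titles.

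The enzymes and gene lists were chosen with earlier results of these data known. All 8 enzymes are named throughout, together with 7 further pathway genes, the list genes past the threshold, and the 3 genes most correlated with each enzyme. Alternatives were other scalings, ranks, a filter on dim genes, the mean of a gene's clusters, other time axes, a separate term for 32°C, no time block, another eBayes setting, and leaving out each time. Sequences came from RefSeq tables of GRCm38.p6, in which all 8 enzymes were matched by symbol.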

Additional observations from a re-analysis of the deposited data

Results flagged for a closer look

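Pgd was singled out because its course differed between the 2 temperatures in a test of the difference itself, by 0.051 log2 units per time point (limma adjusted p = 0.0465). At 18 h it was 0.10 log2 units above the start at 32°C and 0.25 log2 units below it at 37°C, a gap of 0.35, with 1 array at each point. No group held enough arrays for a test of single arrays that stand apart.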

How the results depend on the processing

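Of 584 values of the 8 enzymes under alternatives, 567 kept their sign, 9 lost a call, 9 gained one and 0 reversed past a threshold. Many of these signs could not change. The filter on dim genes and the other eBayes setting leave the fitted value as it was, and the sign-flip entries reuse it. The mean of a gene's clusters can alter only Me1. The count of signs kept is therefore not a measure of robustness. Of the calls gained, 3 (Pgd, Tkt and Taldo1 over the 6 pairs) came from the exact sign-flip test, whose p was not adjusted over genes. That p was fixed by their being higher at 32°C in all 6 pairs. The number of enzymes called for divergence, 1 in the report, was 0 with quantile normalization, with relative ranks, with time in hours, or when 32°C had a term of its own, and 2 (Pgd and Tkt) with no time block. It was 0 to 1 on leaving out each time, 0 without 0.5, 2, 4, 8 or 18 h and 1 without 1 h. The number called over the late pairs, 0 in the report, was 1 (Pgd) with median centring, with genes above the median signal only and with a robust, trended eBayes, and 2 with no time block. The counts for both trends and for the 6 pairs stayed at 0 under every fit across all genes. Pgls over the late pairs kept its sign in 8 of 13 alternatives. The cause of these changes was not tested. Arrays were paired by the hour of sampling alone, since the labels number no replicates. With 1 array per temperature and time, differences of the size seen for most of these enzymes could not be told from scatter.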
